A study of Mus musculus with 4 samples.

Results

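Glutathione enzymes, peroxiredoxins, thioredoxins and superoxide dismutases were compared between the soleus muscles of wildtype and HSL-null mice. HSL-null mice lack hormone-sensitive lipase, the enzyme encoded by Lipe that hydrolyses stored acylglycerols. The members were all probe sets with exactly 1 symbol that began with Gst, Gpx, Prdx, Sod, Txn or Glrx, or that was Gsr, Gclc, Gclm, Gss or Nqo1. Gstcd and Txnip were not taken. Each gene was represented by its probe set with the highest mean over the 4 arrays, which gave 45 members among 8251 named genes. Of these 45, 38 lay above the filter on low values, a mean intensity of 27.7 over the 4 arrays, and 7 lay below it. The 4 arrays hold 2 technical duplicates for each genotype. The labels call the arrays technical duplicates of pooled muscle, which was read here as 1 pool per genotype. Each pool was of soleus, a slow-twitch calf muscle, taken from 5 females 6 months old. With 1 pool per genotype, no difference has a replicate check across animals, no p-value can be given, and errors measure the spread between arrays. The sources used here name no background strain, no treatment and no disrupted segment of Lipe. In bulk muscle, fewer cells of a type and less RNA per cell cannot be told apart.

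Superoxide dismutases turn superoxide into hydrogen peroxide. Glutathione peroxidases and peroxiredoxins then reduce peroxides, drawing electrons from glutathione and from thioredoxin, which reductases restore with NADPH. Glutathione S-transferases couple glutathione to reactive lipids and foreign compounds. Contracting oxidative muscle is a steady source of such oxidants, and the transcription factor NRF2 (Nfe2l2) drives many of these genes through antioxidant response elements.

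Promoter sequence was set out first, to show which members carry 1 form of the core letters of that element close to a start. RefSeq promoters (GRCm38.p6) were matched for 38 of the 45 members. Gsr and Gclc were among the others, which were not searched. The 250 bases before each start were searched on both strands for TGACNNNGC, whose reverse complement is GCNNNGTCA. Its first letters are shared with the AP-1 motif TGACTCA, so a match to this motif can overlap one to AP-1. At least 1 promoter held a match in 6 of 38 members (15.8%), against 3112 of 27025 genes of the table (11.5%). A gene can have several starts, and counted by promoter the shares were 6 of 50 (12%) and 3338 of 32851 (10.2%). A match is a description of letters and not a binding site. The search would miss an element further upstream or in a variant spelling, so a member without a match may still carry one. Of the 6 members, 5 lay above the filter, and the stretch around each match is shown with the matched letters in capitals.
Gclm: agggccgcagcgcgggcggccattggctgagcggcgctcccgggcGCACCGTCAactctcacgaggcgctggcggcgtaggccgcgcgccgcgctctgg
Gstm5: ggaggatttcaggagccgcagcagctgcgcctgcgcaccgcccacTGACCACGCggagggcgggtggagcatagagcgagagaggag
Sod1: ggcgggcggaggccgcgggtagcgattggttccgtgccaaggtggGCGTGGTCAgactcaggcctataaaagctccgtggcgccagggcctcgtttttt
Txndc5: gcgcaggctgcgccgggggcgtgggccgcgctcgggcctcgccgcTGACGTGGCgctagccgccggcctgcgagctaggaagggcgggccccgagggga
Txnrd1: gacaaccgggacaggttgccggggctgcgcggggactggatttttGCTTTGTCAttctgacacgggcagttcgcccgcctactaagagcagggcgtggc
These stretches lie at chr3:122245378-122245476 (plus strand) for Gclm, chr3:107895767-107895853 (plus strand) for Gstm5, chr16:90220661-90220759 (plus strand) for Sod1, chr13:38527999-38528097 (minus strand) for Txndc5 and chr10:82859069-82859167 (plus strand) for Txnrd1. The match begins 134 bases before the start of Gclm, 42 before that of Gstm5, 56 before that of Sod1, 138 before that of Txndc5 and 92 before that of Txnrd1. Txndc5 and Txnrd1 each have 3 starts in the table, 1 of them with a match. The 5 genes differed in sign. The log2 difference, HSL-null minus wildtype, was -0.21 ± 0.10 (SE of duplicates) for Sod1, against 0.085 ± 0.084 for Gclm, 0.027 ± 0.081 for Gstm5, 0.11 ± 0.18 for Txndc5 and -0.016 ± 0.017 for Txnrd1.

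No antioxidant enzyme gene passed the rule for a called difference. Calling a gene required that both HSL-null arrays lie on the same side of both wildtype arrays, by 1.5-fold or more in each of the 4 pairings. Of 38 members, 0 were called higher and 0 lower. Over all 4851 named genes above the filter, 0.454% were called, 0.206% higher and 0.247% lower, so that a count of 0 among 38 is near the background. With the limit lowered to a higher value 25% above the lower one in every pairing, the members still gave 0, against 2.16% of named genes (1.2% higher and 0.969% lower). The differences of the members ran from -0.28 to 0.29 on the log2 scale. Their median was 0.026, against -0.0041 for all named genes, and it was 0.0094 without wildtype array 1.

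A looser description is the count of genes whose 2 wildtype and 2 HSL-null intensities do not overlap at all. Of 38 members, 13 had no overlap (34.2%), against 41.2% of named genes. Among the members 7 were higher (18.4%) and 6 lower (15.8%), and among named genes 19.7% were higher and 21.5% lower. As deposited, both shares among the members lay below the background. With 1 array left out, which asks less of a gene, the higher share of the members lay above the background each time, at 36.8% to 47.4% against 33.4% to 35.1%, and the lower share below it, at 18.4% to 31.6% against 35.8% to 36.9%. The 6 lower members were Gsr, Gstk1, Gss, Sod1, Gpx3 and Gstm2. The 7 higher members were Txn1, Prdx4, Gpx1, Gsta4, Txndc16, Gstz1 and Prdx2, and each differed by less than 0.1 on the log2 scale. The SD of the log2 difference over the 38 members was 0.18 between the wildtype duplicates and 0.15 between the HSL-null duplicates, and 0.15 to 0.18 between arrays of different genotypes.

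**Figure D1:**
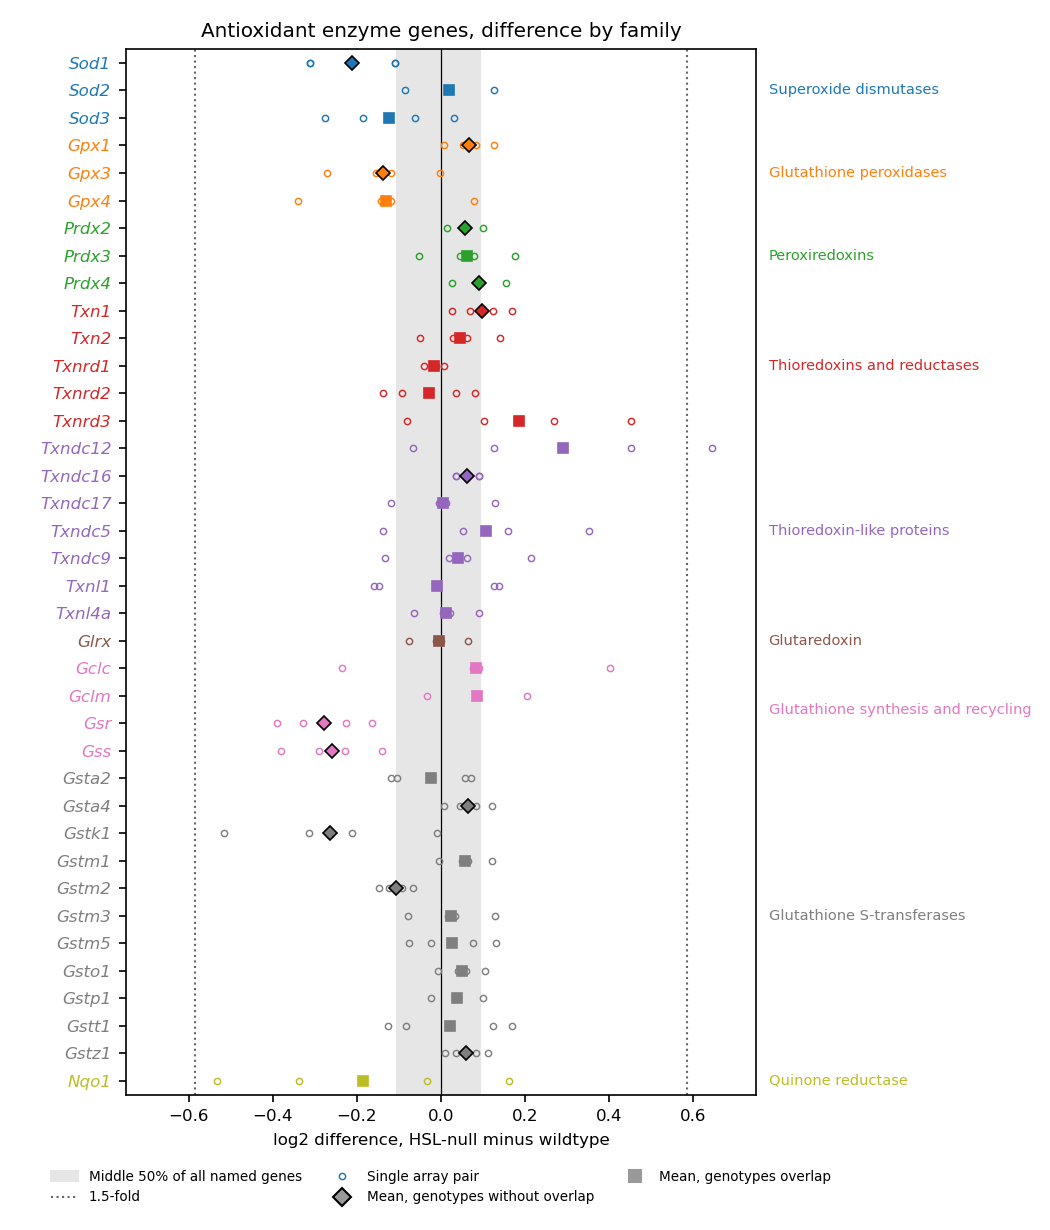
Log2 difference, HSL-null minus wildtype, of the 38 members above the filter, grouped by family. Open circles are the 4 single array pairs, filled marks are means (diamonds where the genotypes do not overlap), dotted lines are 1.5-fold and the grey band holds the middle 50% of 4851 named genes. No member has all 4 circles beyond a dotted line, and the means run from -0.28 for Gsr to 0.29 for Txndc12.

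Among the superoxide dismutases, the cytosolic enzyme Sod1 was lower in the HSL-null pool. Sod1 measured 1023.9 and 1024.4 in wildtype and 949.7 and 824.6 in HSL-null. Both HSL-null arrays lay below both wildtype arrays, but they differed more from each other than the nearer one did from wildtype. The wildtype mean was 1024 ± 0.354 (SD, n = 2 arrays) and the HSL-null mean 887 ± 88.5, a log2 difference of -0.21 ± 0.10 (SE of duplicates), with 1.08-fold for the closest array pair. Sod2, the manganese enzyme of mitochondria, measured 384.8 and 357.6 in wildtype and 362.7 and 390 in HSL-null, with overlap. Sod3, the secreted enzyme, measured 142.3 and 151.7 in wildtype and 125.2 and 145.4 in HSL-null, also with overlap, and differed by -0.12 ± 0.12. The median of the 3 genes was -0.12, and -0.015 without HSL-null array 1.

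The glutathione peroxidases gave small differences of both signs. Gpx3, the secreted peroxidase, measured 731.5 and 658.6 in wildtype and 606.1 and 657.3 in HSL-null. The groups did not overlap, but only because wildtype array 2 and HSL-null array 2 lay 1.00-fold apart, and the difference was -0.14 ± 0.096. Gpx1, the cytosolic peroxidase, measured 83.7 and 88.2 in wildtype and 91.4 and 88.7 in HSL-null, a difference of 0.068 ± 0.044 without overlap. Gpx4, which reduces lipid peroxides in membranes, differed by -0.13 ± 0.15 with overlap. The median of these 3 was -0.13. It was -0.021 without wildtype array 1 and -0.21 without wildtype array 2. Gpx2, Gpx5 and Gpx7 lay below the filter.

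The 3 peroxiredoxins all lay slightly above 0. Prdx2, a cytosolic peroxiredoxin that is abundant in red blood cells, measured 1659.4 and 1706.5 in wildtype and 1778 and 1723.2 in HSL-null, a difference of 0.057 ± 0.030 without overlap. Its second probe set above the filter measured 51.0 and 44.3 in wildtype and 58.4 and 63.7 in HSL-null, also without overlap, and differed by 0.36 ± 0.12. The erythroid markers lay on the same side. Of 7 erythroid genes on the array 3 lay above the filter, and all 3 were higher without overlap (background 19.7%), and the summed intensity of the 7 was 2498 and 2600.1 in wildtype and 2843 and 2715 in HSL-null. None of the 7 was listed at 0, and their part in the Prdx2 difference was not tested. Prdx3, the mitochondrial peroxiredoxin, differed by 0.062 ± 0.082 with overlap. Prdx4, which works in the endoplasmic reticulum, measured 30.2 and 31.6 in wildtype and 33.6 and 32.2 in HSL-null, close to the filter, and differed by 0.091 ± 0.045.

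Thioredoxins and their reductases differed little. Txn1, the cytosolic thioredoxin, measured 505.1 and 489.7 in wildtype and 550.6 and 514.1 in HSL-null. Both HSL-null arrays were above both wildtype arrays, and the difference was 0.097 ± 0.054. Its reductase Txnrd1 gave closely spaced values, 217.9 and 213.9 in wildtype and 214.9 and 212 in HSL-null, which overlapped. In mitochondria, Txn2 measured 717.8 and 757.8 in wildtype and 791.1 and 731.8 in HSL-null. Those intensities overlapped, and the mitochondrial reductase Txnrd2 differed by -0.029 ± 0.089. Txnrd3, a reductase known mainly from testis, differed by 0.19 ± 0.20, and its wildtype duplicates of 129.2 and 164.7 enclosed one HSL-null array. Its second probe set lay at or near the floor, at 6 and 4.9 in wildtype and 3 and 3.9 in HSL-null. The median of the 5 was 0.045, and -0.0065 without HSL-null array 1.

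Thioredoxin-like proteins carry the same fold in other settings, and 6 of 7 overlapped between genotypes. Txndc16, a thioredoxin-domain protein of the endoplasmic reticulum, measured 101.4 on both wildtype arrays, and 107.9 and 103.9 in HSL-null, a difference of 0.062 ± 0.027. Txndc12, also of the endoplasmic reticulum, had the highest difference of the 38 members above the filter, 0.29 ± 0.28, from 42.4 and 29.6 in wildtype and 40.5 and 46.3 in HSL-null. Its first wildtype array lay within the HSL-null range, and the error is as large as the difference. Txnl4a, a part of the spliceosome, measured 292.3 and 278.8 in wildtype and 296.7 and 279.6 in HSL-null. The remaining differences were 0.11 ± 0.18 for the protein disulfide isomerase Txndc5, 0.0044 ± 0.088 for Txndc17, 0.040 ± 0.12 for Txndc9 and -0.010 ± 0.14 for Txnl1. Glrx, the cytosolic glutaredoxin that removes glutathione from proteins, measured 200.8 and 190.5 in wildtype and 190.5 and 199.2 in HSL-null and did not separate.

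Genes of glutathione synthesis and recycling gave differences of both signs. Gsr, the glutathione reductase that restores the reduced form with NADPH, measured 164.3 and 184.1 in wildtype and 146.5 and 140.4 in HSL-null. Both HSL-null arrays lay below both wildtype arrays. The wildtype mean was 174 ± 14.0 (SD, n = 2 arrays) and the HSL-null mean 143 ± 4.31, a difference of -0.28 ± 0.088 (SE of duplicates) and the lowest of the 38 members above the filter. Gss, which completes glutathione synthesis, measured 104.4 and 111 in wildtype and 85.3 and 94.7 in HSL-null. Its mean was 108 ± 4.67 in wildtype and 90.0 ± 6.65 in HSL-null, a difference of -0.26 ± 0.087. The second Gss probe set gave the opposite sign, 0.17 ± 0.14, and the mean of both was -0.043 with overlap, so that no direction can be given for Gss. The subunits of glutamate-cysteine ligase, which starts the synthesis, overlapped, with 0.083 ± 0.23 for the catalytic Gclc and 0.085 ± 0.084 for the modifier Gclm. Gclc measured 60.5 and 48.3 in wildtype and 51.4 and 63.8 in HSL-null. The median of the 4 genes was -0.089, between -0.16 and -0.021 with 1 array left out, and 0.020 with all probe sets of a gene averaged.

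The glutathione S-transferases centred near 0, with 11 of 15 above the filter, 8 of the 11 above 0 and a median of 0.027. Gstp1, the pi-class enzyme, measured 1818 and 1895 in wildtype and 1947 and 1865 in HSL-null, with overlap. Gstk1, the kappa-class enzyme of mitochondria and peroxisomes, measured 506.4 and 409.6 in wildtype and 353.7 and 407.1 in HSL-null. The groups met at 409.6 and 407.1, and the difference was -0.26 ± 0.18 with wide duplicates on both sides. Gstm2, a mu-class enzyme, measured 281.2 and 292.4 in wildtype and 268.3 and 263.8 in HSL-null, a difference of -0.11 ± 0.031. Its second probe set also lay lower, at -0.23 ± 0.17. In the RefSeq gene order Gstm2 sits between Gstm3 and Gstm1, and those neighbours differed by 0.025 ± 0.074 and 0.058 ± 0.045, both with overlap. Mu-class genes are close copies, and the probe sets that stood for Gstm1, Gstm3 and Gstm5 carry the suffix _f, which marks probes that can be shared within a family, so that these values are uncertain to that extent. Gsta4, which conjugates the lipid peroxidation product hydroxynonenal, measured 71.4 and 75.3 in wildtype and 75.7 and 77.7 in HSL-null, a difference of 0.065 ± 0.043. Gstz1, an enzyme of tyrosine breakdown, measured 340.4 and 358.7 in wildtype and 360.8 and 367.6 in HSL-null, a difference of 0.060 ± 0.040. Both sat without overlap by less than 1.01-fold on the closest array pair. The others overlapped, with 0.050 ± 0.040 for Gsto1, 0.027 ± 0.081 for Gstm5, 0.021 ± 0.13 for Gstt1 and -0.024 ± 0.088 for Gsta2.

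Nqo1, the quinone reductase used as a readout of NRF2 activity, showed no separation. It measured 153.1 and 133.7 in wildtype and 149.6 and 105.8 in HSL-null, a difference of -0.19 ± 0.27. Its second probe set lay at 0.079 ± 0.079, so that neither the sign nor the size is settled. The 7 members below the filter had mean intensities of 1.55 to 22.9 and differences of -0.71 to 0.57. Of these, Gpx7 was higher and Gstt2 lower without overlap, 0 were called, and Gsta1 and Gstm6 lay at the floor of 5.7 on all arrays. Gstt2 measured 25.2 and 20.4 in wildtype and 14.6 and 13.2 in HSL-null, under the level at which differences were read.

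**Figure D2:**
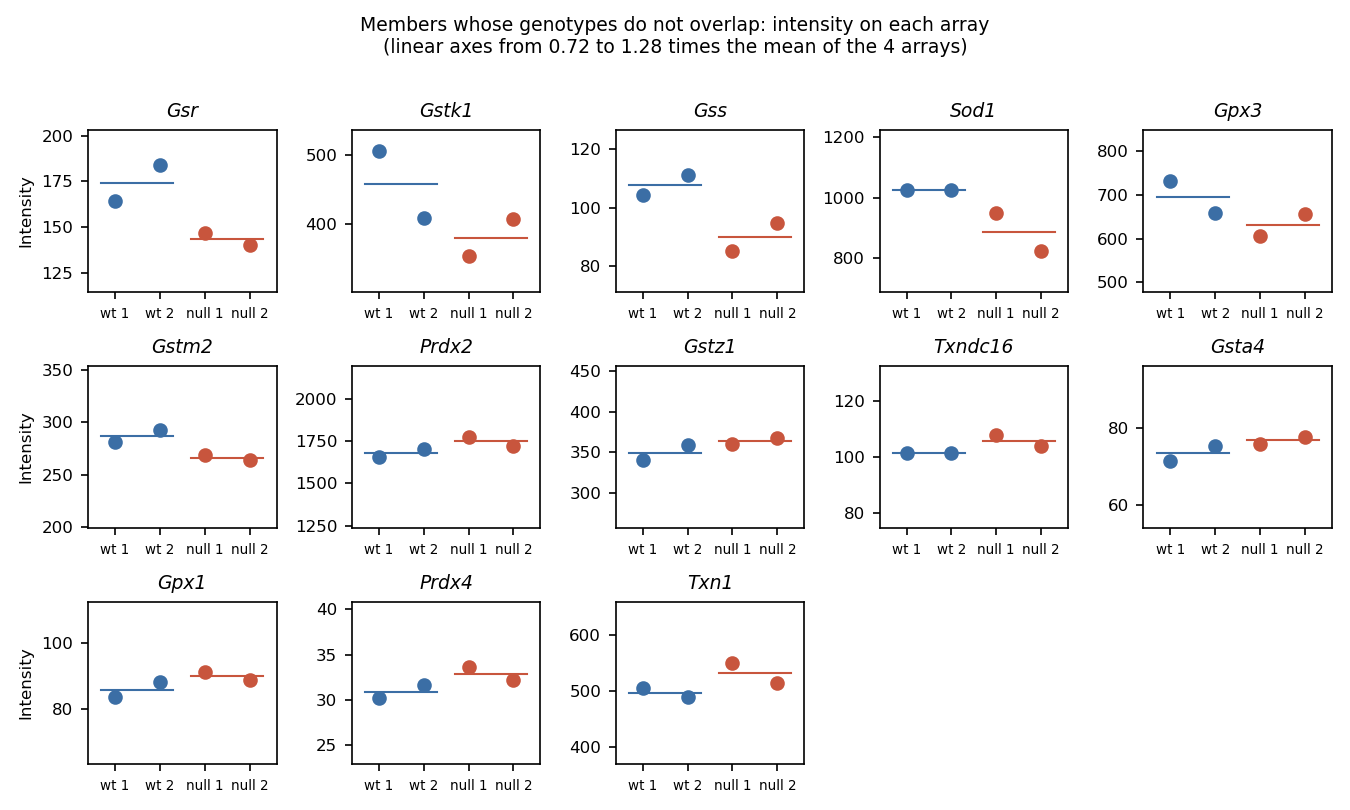
Intensity on each array of the 13 members whose genotypes do not overlap, ordered from the lowest to the highest difference, with wildtype in blue and HSL-null in red. Points are single arrays, lines are means of 2 arrays, and each linear axis covers the same range relative to the mean of the 4 arrays and does not start at 0. For Gstk1 and Gpx3 the nearest points of the genotypes almost touch, whereas those of Gsr and Sod1 are apart by 1.12-fold and 1.08-fold.

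Which members separated depended in part on how the arrays were scaled. Of the 13, 8 kept their separation under all 4 scalings, the 4 lower genes Gsr, Gss, Sod1 and Gstm2 and the 4 higher genes Txn1, Gsta4, Gstz1 and Txndc16. Gpx1, Gpx3, Gstk1, Prdx2 and Prdx4 overlapped under quantile normalization, and Gpx3, Gstk1 and Prdx4 also under cyclic loess. None of the 13 differences turned sign under the 4 scalings.

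**Figure D3:**
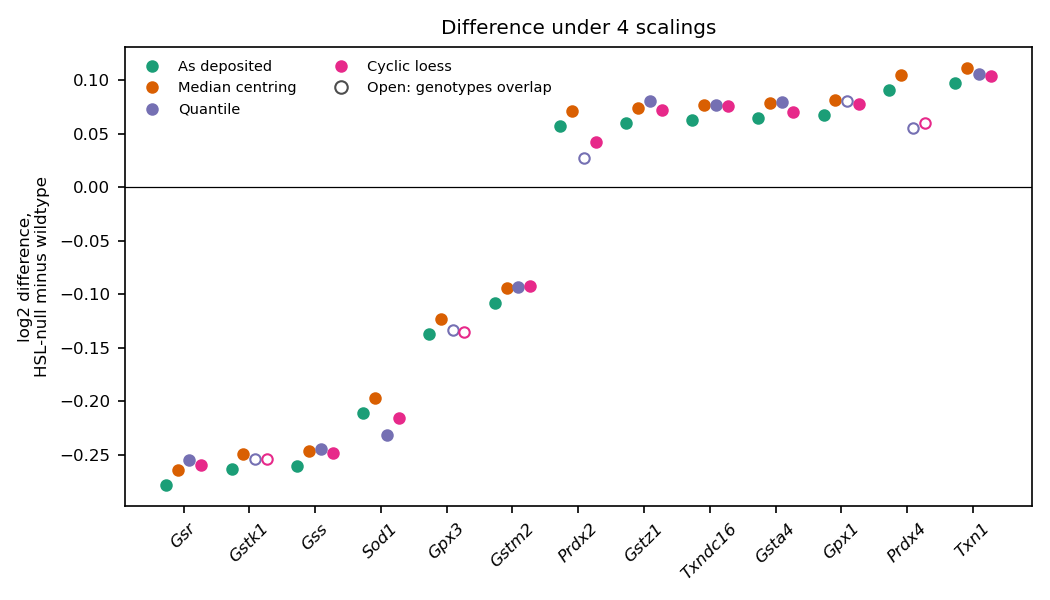
Log2 difference, HSL-null minus wildtype, of the 13 members without overlap under 4 scalings of the arrays. Filled circles mark genotypes without overlap and open circles overlap, and the signs hold while Gpx1, Gpx3, Gstk1, Prdx2 and Prdx4 each have at least 1 open circle.

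Other genes of the pathway lay mostly below 0. Of 101 genes on 5 lists, 66 were named on the array and 51 lay above the filter. Of the 51, 35 lay below 0 and 16 above, with a median of -0.062 against -0.0041 for all named genes. Without overlap 18 were lower (35.3%, background 21.5%) and 5 higher (9.80%, background 19.7%). The lower count was 17 with median centring (33.3%, background 18.9%), 21 with quantile normalization (41.2%, background 21.0%) and 18 with cyclic loess (35.3%, background 20.7%). It was 14 (27.5%, background 21.2%) with all probe sets of a gene averaged. By the call rule 1 of the 51 was lower, Cyp2e1 (background 0.247% of named genes), and 0 were higher (background 0.206%). These shares carry no test, and the lists were written with earlier results of these data known.

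**Figure D4:**
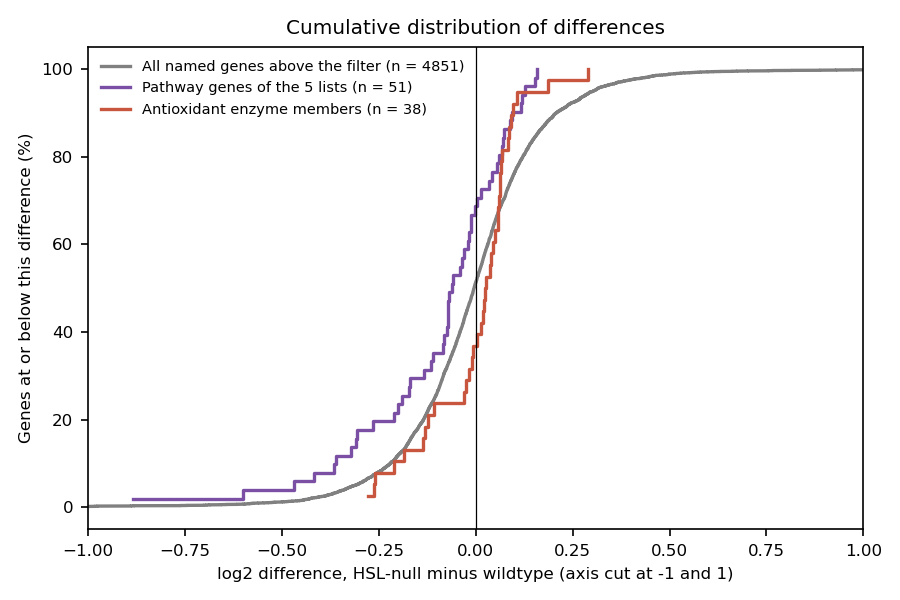
Percentage of genes at or below each log2 difference, HSL-null minus wildtype, for 38 members, 51 pathway genes and 4851 named genes above the filter. The member curve crosses 50% at 0.026 and the pathway curve at -0.062, and the horizontal axis is cut at -1 and 1.

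Among oxidant sources, Cyp2e1, a cytochrome P450 that leaks reactive oxygen, was called lower. It measured 106.8 and 116.8 in wildtype and 57.8 and 63.3 in HSL-null, a difference of -0.88 ± 0.092. Both HSL-null arrays were far below wildtype. It was the single called gene of 5 above the filter on that list (background 0.247% called lower), whose median was -0.12. The NRF2 list, which holds regulators of the system beside targets, had 16 genes above the filter and a median of -0.054. Of the 16, 0 were higher and 6 lower without overlap (0% and 37.5%, against 19.7% and 21.5% of named genes). The 6 were Aox1, Mafg, Mafk, Sqstm1, Nfe2l1 and Nfe2l2, and every other gene above the filter on the list overlapped. Its brightest members were Fth1, the ferritin heavy chain, at 0.0039 ± 0.056, and Nfe2l1, a relative of NRF2, at -0.17 ± 0.076. Nfe2l2 itself, chosen after its values were seen, measured 205.3 and 207.5 in wildtype and 197.5 and 194.5 in HSL-null, -0.075 ± 0.013 and without overlap. The groups lay 1.04-fold apart on the closest array pair.

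Other peroxide, radical and protein repair genes had 13 above the filter, 2 higher and 6 lower without overlap (15.4% and 46.2%, against the same 19.7% and 21.5%), and a median of -0.062. Park7, a redox-sensing protein, differed by -0.062 ± 0.061, and Msrb1, which repairs oxidised methionine, by -0.37 ± 0.24. Srxn1, the sulfiredoxin that restores overoxidised peroxiredoxins, was chosen after its values were seen. It measured 64.5 and 51.4 in wildtype and 40.9 and 42.4 in HSL-null, a difference of -0.47 ± 0.17, and both HSL-null arrays lay below both wildtype arrays. Of 8 NADPH supply genes, 1 was higher (12.5%, Idh2) and 3 lower (37.5%, Pgd, Taldo1 and Me1) without overlap. The 2 brightest were Idh2 at 0.13 ± 0.017 and the transhydrogenase Nnt at 0.12 ± 0.14. The median of the 8, -0.046, was 0.047 without wildtype array 1. Of 9 genes of glutathione supply and export, 1 was higher (11.1%) and 2 lower (22.2%) without overlap. The higher one was the glyoxalase Glo1 at 0.16 ± 0.080, and the lower ones were Ahcy at -0.60 ± 0.23 and Slc3a2 at -0.21 ± 0.046. Mgst3, a microsomal transferase and the brightest of the list, differed by 0.12 ± 0.11 with overlap. The median of the 9 was -0.035, 0.030 without HSL-null array 1, and 0.050 with no filter or with the filter at the 75th percentile.

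Several other measures differed between the pools. Lipe measured 71.4 and 70.2 in wildtype and 16.2 and 19.4 in HSL-null, lower as the labels have it, although where its probes lie relative to the disrupted segment is unknown here. All 10 slow-twitch fibre markers lay above the filter in this slow muscle. Of these, 9 lay above 0, with a median of 0.041. Without overlap 3 were higher (30%, background 19.7%) and 1 lower (10%, background 21.5%), the lower one being Csrp3 at -0.36 ± 0.13. Of 9 white adipocyte markers above the filter, 2 were called lower (Lipe and Adipoq, background 0.247%) and 6 of the 9 lay below 0. Without overlap 5 were lower (55.6%, background 21.5%) and 1 higher (11.1%, background 19.7%). The higher marker was Agt, at 25.3 and 30.4 in wildtype and 66.6 and 44.7 in HSL-null. The summed intensity of the 13 adipocyte markers on the array was 7353 and 6759 in wildtype and 7206 and 7154 in HSL-null, with none listed at 0. Car3 and Lpl, which muscle also expresses, made up most of that sum, and the other 11 markers, split off after the values were seen, summed to 725.8 and 725.3 in wildtype and 549.7 and 533.3 in HSL-null. Lipe, the gene disrupted in HSL-null mice, is among these 11, so its own fall is part of these sums. Of 10 fast-twitch fibre markers above the filter, 3 were called higher (Myh4, Actn3 and Pvalb, background 0.206%). Among the 10, 4 were higher without overlap (40%, background 19.7%) and 0 lower (background 21.5%). The summed intensity of the 11 fast-twitch markers on the array was 21768 and 19937 in wildtype and 25051 and 24671 in HSL-null. All 9 fibroblast and matrix markers lay above 0, as did 48.8% of named genes. Of the 9, 8 were higher without overlap (88.9%, background 19.7%) and 0 lower (background 21.5%). Their summed intensities were 3779 and 3769 in wildtype and 4266 and 4416 in HSL-null. Endothelial markers had a median of -0.12 over 9 genes and macrophage markers one of -0.020 over 8. The 3′ to 5′ signal ratio of beta-actin, a sign of RNA quality, was 0.697 ± 0.0126 (SD over duplicates) in the wildtype pool and 0.819 ± 0.00532 in the HSL-null pool, and that of Gapdh was 0.941 ± 0.0203 and 0.917 ± 0.00716. The part of these cell type and RNA measures in the values of the antioxidant genes was not tested.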

How the data were processed

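The authors deposited linear intensities of 12488 probe sets for 4 arrays, 2 per genotype. For software and background correction, the sources used here name none. As tested on the values, the authors' intensities had equal means of 100.1 on every array after trimming 2% from each end, so they were used as deposited. GEO's platform annotation gave 1 symbol for 10855 probe sets, and all 45 members matched RefSeq (GRCm38.p6) by gene ID. The 66 control probe sets and 4 probe sets with several symbols, one of them a member symbol, were left out.

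A floor of 5.7 (25th percentile of the whole table) was set before taking log2. The filter kept genes whose mean reached 27.7, the median over probe sets. The call rule was applied to all named genes with 1 probe set per gene. It was run on simulated data whose noise had the spread of the wildtype duplicates. That simulation held no variation between pools, so it cannot show how often pools of the same genotype would be called different. Members above the filter were all named, with array values for those without overlap and for the brightest of each family. Of each pathway list, called genes or the 2 brightest were named. Marker lists are given by counts or medians and called genes, some of them with sums. Further list genes, among them Nfe2l2, Srxn1, Agt and Csrp3, were named outside that rule after their values were seen. Members and lists were chosen with earlier results of these data known. Alternatives are given in the closing section. Tools were Python 3.11.15, numpy 2.4.6, pandas 2.3.3, R 4.3.3 and limma 3.58.1. The number of arrays limits the precision.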

Additional observations from a re-analysis of the deposited data

How the results depend on the processing

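Each result was recomputed under up to 15 alternatives. The count of called members stayed at 0 in both directions under every alternative run. The median of the members was 0.040 with median centring, where all named genes had 0.0099. Members higher without overlap numbered 4 with quantile normalization (10.5%, background 20.3%). They numbered 3 of 25 with the filter at the 75th percentile (12%, background 20.0%). With no filter the glutathione peroxidase median was 0.043, the glutathione supply median 0.050 and the pathway genes higher without overlap 8 (12.1%, background 17.0%). With the filter at the 75th percentile the glutathione supply median was 0.050 and 0 pathway genes were called lower, since Cyp2e1 lay below that filter. That filter left no oxidant source and 1 glutathione synthesis gene, so that neither median was computed. With all probe sets of a gene averaged, the glutathione synthesis and recycling median was 0.020. With the replicate number as a block, only same-numbered arrays are compared, so that 2 differences in place of 4 must share a sign. Then 13 members were higher (34.2%, background 25.4%) and 10 lower (26.3%, background 27.5%), and no call by the fold rule changed. The labels do not say that a number pairs arrays, and the deviations of same-numbered arrays correlated at -0.086 over 6208 probe sets.

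Leaving out 1 array also leaves 2 differences. Members without overlap then numbered 14 to 18 higher (36.8% to 47.4%, background 33.4% to 35.1%) and 7 to 12 lower (18.4% to 31.6%, background 35.8% to 36.9%). Pathway genes higher without overlap numbered 10 to 14 (19.6% to 27.5%, background 33.4% to 35.1%). Pathway genes called lower numbered 1 to 2 (background 0.557% to 0.886%), the higher count being reached when array 2 of either genotype was dropped. Medians ranged from 0.0094 to 0.028 for the members, 0.0069 to 0.068 for glutathione S-transferases, -0.21 to -0.021 for glutathione peroxidases, -0.17 to -0.015 for superoxide dismutases, -0.061 to 0.047 for NADPH supply and -0.045 to 0.030 for glutathione supply. For these shifts the cause was not tested. Low intensities limit the 7 members below the filter.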
